A study of Mus musculus with 9 samples.

Results

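The genes examined are 10 that encode signals and receptors between a Schwann cell, its axon and its basal lamina: Nrg1, Erbb2, Erbb3, Lgi4, Adam22, Adgrg6, Itgb1, Itga6, Itgb4 and Dag1. They were named by their place in these pathways, not by a rule on measured values, but with earlier results of these data known. All 10 of them were found among the 36121 genes of the table. They passed the minimum mean of 1 that left 15014 genes for testing. The values come from RNA sequencing of whole sciatic nerves of 9 C57BL6 mice aged 21 days, with 3 mice per genotype and 2 females and 1 male in each. The cKO mice carried Cnp-Cre and floxed Tardbp on both alleles. The cHet mice carried Cnp-Cre and 1 floxed allele, and the control mice carried the floxed alleles and no Cre, so that every group shared a floxed Tardbp allele and the control lacked the Cre as well as the deletion. Tardbp encodes TDP-43, an RNA-binding protein, and the Cre, expressed from the Cnp gene, acts in Schwann cells and oligodendrocytes, so that other cells of the nerve keep TDP-43. Groups were taken from the sample titles. The genotype field of 3 libraries differed from the title, since cKO mice ID-2744 and ID-2747 were given there as Cnp-Cre with 1 floxed allele and cHet mouse ID-2742 as floxed without Cre.

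Per the methods, mice of the 3 genotypes were analysed in sets drawn from a shared litter or from litters born close together. The labels do not give which mice formed a set. The p-values thus come from unpaired fits, which set a group difference against the spread between nerves of the same group. Tardbp stood at 94.2 to 103 normalized TPM in cKO nerves, at 177 to 186 in cHet nerves and at 185 to 217 in control nerves, so that the 2 cKO libraries with the differing genotype field had the low level of their title. Cnp, the myelin enzyme gene whose promoter drives the Cre, stood at 498 to 799 in cKO, 640.5 to 849 in cHet and 1168 to 1700 in control nerves, so that the cHet library with the differing field lay with the Cre carriers. Of the Schwann cell markers, 12 of 12 had a mean of at least 1, and their summed level was 78285 to 109382 in cKO, 96483 to 135912 in cHet and 103308 to 132431 in control nerves. Their mean log2 value minus the median of the 9 libraries overlapped, at -0.100 to 0.251 in cKO, -0.144 to 0.292 in cHet and -0.115 to 0.288 in control nerves. A few libraries stood apart by markers of other cells. The neuron marker score, the mean log2 value over 16 neuronal genes, was more than 1 above the median of the 9 libraries in cKO mouse ID-2748, cHet mouse ID-2742 and control mouse ID-2746. The skeletal muscle score was that high in cKO mice ID-2747 and ID-2748 and control mouse ID-2743, and the adipocyte score in control mice ID-2743 and ID-2754. The muscle scores were 4.42 in mouse ID-2748 and 5.82 in mouse ID-2743, while mouse ID-2747, at 1.004, barely passed the limit of 1. Of the oligodendrocyte markers, 3 of 7 had a mean of at least 1, and Klk6 was listed at 0 in all cKO and cHet nerves. Their score was 1.23 above the median in control mouse ID-2754. Their summed level was 167 in that nerve, beside 38.0 to 50.7 in cKO and 25.1 to 42.7 in cHet nerves. In control mice ID-2743 and ID-2746 it was 23.6 and 41.7. A value is that of the whole nerve, so that fewer cells of a type and less RNA per cell cannot be told apart.

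In the developing nerve, neuregulin 1 on the axon binds a receptor of Schwann cells made of ErbB2 and ErbB3, which drives their survival, migration and the thickness of the myelin they form. Lgi4, secreted by Schwann cells, binds Adam22, and the adhesion receptor Adgrg6, also called Gpr126, raises cyclic AMP to start myelination. On the outer side of the Schwann cell, integrins of the β1 and β4 chains and dystroglycan hold it to the laminins of the basal lamina and are needed to sort axons and to stabilize myelin.

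In the build GRCm38 the axonal signal Nrg1 (ENSMUSG00000062991) lies at chr8:31814551-32884029 on the minus strand. Of the neuregulin receptors, Erbb2 (ENSMUSG00000062312) lies at chr11:98412470-98437716 on the plus strand and Erbb3 (ENSMUSG00000018166) at chr10:128567523-128589652 on the minus strand. Lgi4 (ENSMUSG00000036560) lies at chr7:31059342-31070935 on the plus strand and Adam22 (ENSMUSG00000040537) at chr5:8072352-8368160 on the minus strand. Adgrg6 (ENSMUSG00000039116) lies at chr10:14402583-14545659 on the minus strand. The integrin genes are on the plus strand, Itgb1 (ENSMUSG00000025809) at chr8:128685654-128733200, Itga6 (ENSMUSG00000027111) at chr2:71745616-71858416 and Itgb4 (ENSMUSG00000020758) at chr11:115974709-116008412. Dag1 (ENSMUSG00000039952) lies at chr9:108204634-108263958 on the minus strand. Some share ground with a gene on the opposite strand. Lgi4 overlaps Fxyd3, with a mean of 199 normalized TPM, Erbb2 overlaps the end of Mien1, with a mean of 87.0, and Adgrg6 overlaps the pseudogene Gm10335, with a mean of 2.29. Whether the libraries kept strand is not given in the sources used here, so that reads of such partners may not have been told apart.

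TDP-43 is known to bind runs of alternating U and G, and the annotated spliced transcripts of the 10 genes were searched on the sense strand for at least 12 such bases in a row, starting with U. Erbb3 held 1 such run, in its 3′ untranslated region at chr10:128568012-128568023 of GRCm38 on the minus strand, and the other 9 genes held none. It is shown with 6 bases on either side and the run in capitals, as the only match among these genes.
Erbb3: aguguaUGUGUGUGUGUGuaaagc
Of the 14810 tested genes with an annotated transcript, 13.2% held a run of at least this length. The transcripts are those of GENCODE M21. A match is a description of the sequence only, and introns were not searched.

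Only Adgrg6 passed the threshold among the 10 genes. It was lower in cKO than in cHet nerves, and its values separated the 3 genotypes. In cKO against control nerves 0 of 10 genes passed an adjusted p of 0.05 by limma, where 1.57% of all tested genes passed. An unadjusted p under 0.05 was reached by 1 of the 10 (Adgrg6), beside 12.9% of all tested genes. In cKO against cHet nerves 1 of 10 passed, where 1.71% of all tested genes did. In cHet against control nerves 0 of 10 passed, with 1 at an unadjusted p under 0.05 (Adgrg6), where 0% of tested genes passed, or 0 of 15014, with 408 at an unadjusted p under 0.05. The median log2 fold change of the 10 genes was -0.06 for cKO against control, -0.23 for cKO against cHet and 0.12 for cHet against control, and that of all tested genes was -0.02, 0.02 and -0.03 in the same order of comparisons. The comparisons share libraries, so that they are not independent of each other.

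**Figure D1:**
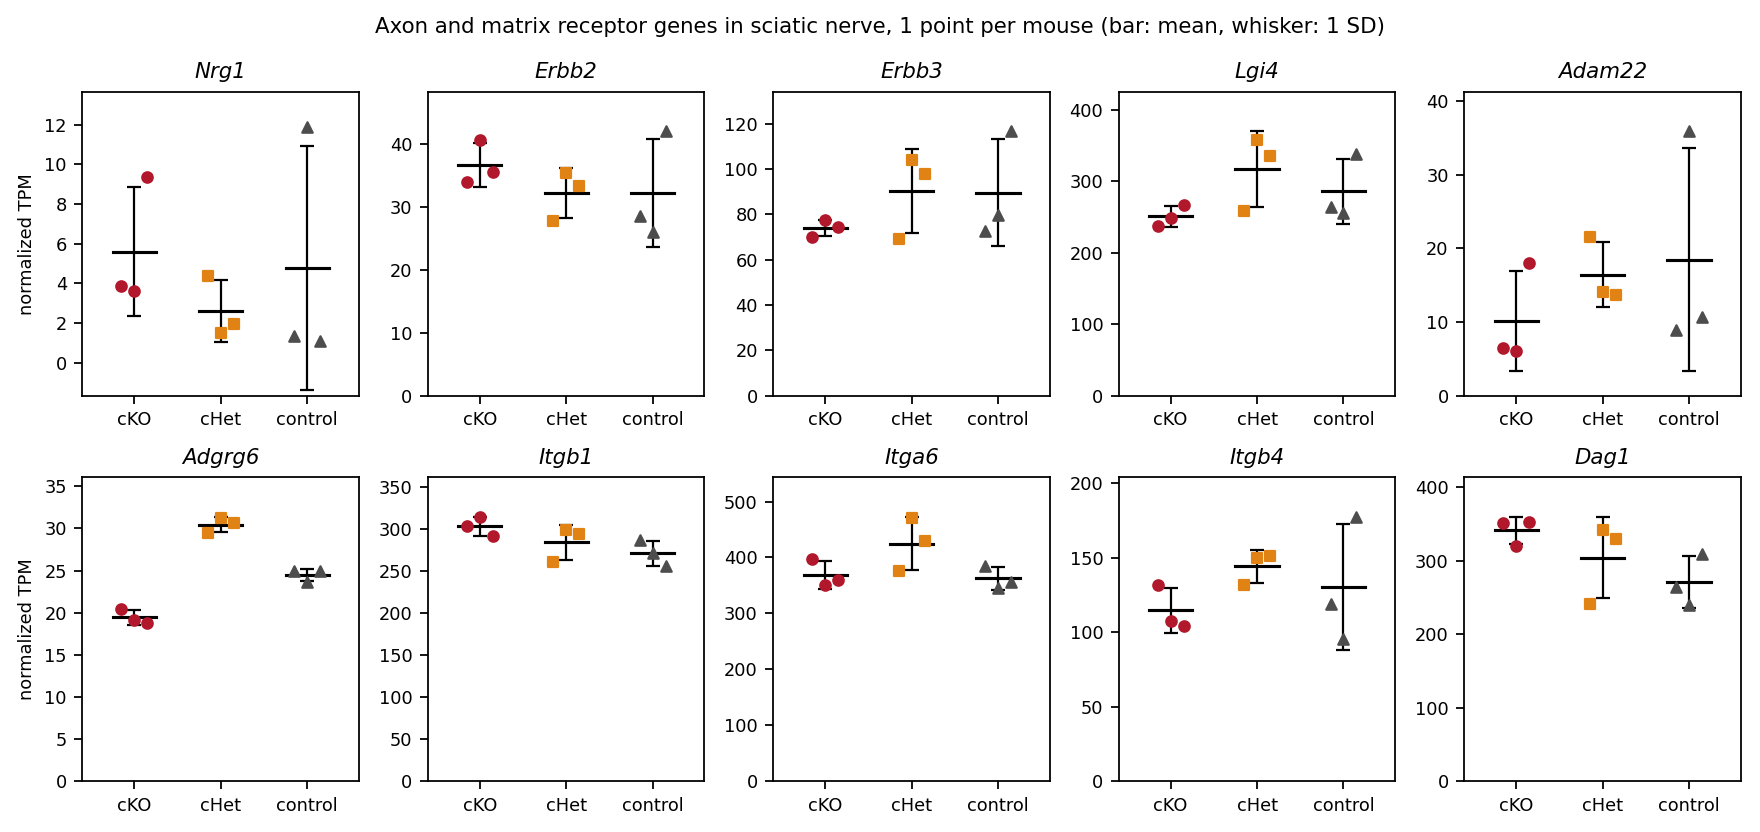
Levels of the 10 genes in normalized TPM (vertical axis) in each of the 9 sciatic nerves, with cKO, cHet and control from left to right, 1 point per mouse, a bar at the mean and a whisker of 1 SD. The 3 genotypes do not overlap in Adgrg6, while Nrg1 and Adam22 each have a control nerve far above the others, at 11.9 and 35.9.

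The levels of the 10 genes, which TPM gives per length of transcript, covered a wide range. Averaged over the 9 nerves they were 385 normalized TPM for Itga6, 306 for Dag1, 286 for Itgb1, 284 for Lgi4, 130 for Itgb4, 84.7 for Erbb3, 33.7 for Erbb2, 24.8 for Adgrg6, 15.0 for Adam22 and 4.33 for Nrg1. Itga6 was the highest of the 10 in every library, Itgb4 ranked 5, Erbb3 ranked 6 and Nrg1 ranked 10 in every library. Dag1, Itgb1 and Lgi4 exchanged ranks 2 to 4 between libraries, and Erbb2, Adgrg6 and Adam22 exchanged ranks 7 to 9, so that within these sets the order did not hold beyond the spread between nerves. Itgb1 varied least, with its highest value 1.23 times its lowest, and Nrg1 varied most, with its highest value 10.9 times its lowest.

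Adgrg6 encodes the receptor that Schwann cells need to begin wrapping. It had 20.5, 19.1 and 18.8 normalized TPM in cKO nerves of mice ID-2744, ID-2747 and ID-2748, 29.5, 31.3 and 30.6 in cHet nerves of mice ID-2742, ID-2745 and ID-2750, and 24.9, 23.6 and 24.9 in control nerves of mice ID-2743, ID-2746 and ID-2754. This order of mice is kept for every gene that follows. Each cKO nerve lay below every other nerve, and each cHet nerve above every other nerve. The mean was 19.4 ± 0.912 in cKO, 30.4 ± 0.909 in cHet and 24.5 ± 0.757 in control nerves (SD, n = 3 each). Expression in the cKO reached 63.8% of that in the cHet, or -0.63 as a log2 fold change (standard error 0.079, 95% interval -0.82 to -0.45, adjusted p = 0.00995 from limma). Against control nerves the cKO nerves gave a log2 fold change of -0.33 (standard error 0.079, 95% interval -0.51 to -0.15, adjusted p = 0.0982 from limma), which did not pass. The cHet nerves against control nerves gave 0.31 (95% interval 0.13 to 0.49, adjusted p = 0.999978 from limma), which did not pass either.

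The nerves rich in neuron markers were the lowest of their genotype in Adgrg6. Its level there was 18.8 in cKO, 29.5 in cHet and 23.6 in control, still apart from the other genotypes. The difference between cKO and cHet nerves kept its sign in all 24 alternative settings, at -0.78 to -0.56, and with the neuron score as a covariate it was -0.63 (adjusted p = 0.0120). The adjusted p rose above 0.05 without cKO mouse ID-2748 (0.0550), without cHet mouse ID-2745 (0.0600) and without cHet mouse ID-2750 (0.0551). It was 0.155 without the 3 neuron-rich libraries, at a log2 fold change of -0.63, and 0.571 without the 3 muscle-rich ones, at -0.56, where 1 cKO nerve is left and taken to vary as the other groups do. Without the 3 libraries whose genotype field differs, which also leaves 1 cKO nerve, the log2 fold change was -0.71 with an adjusted p of 0.424.

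**Figure D2:**
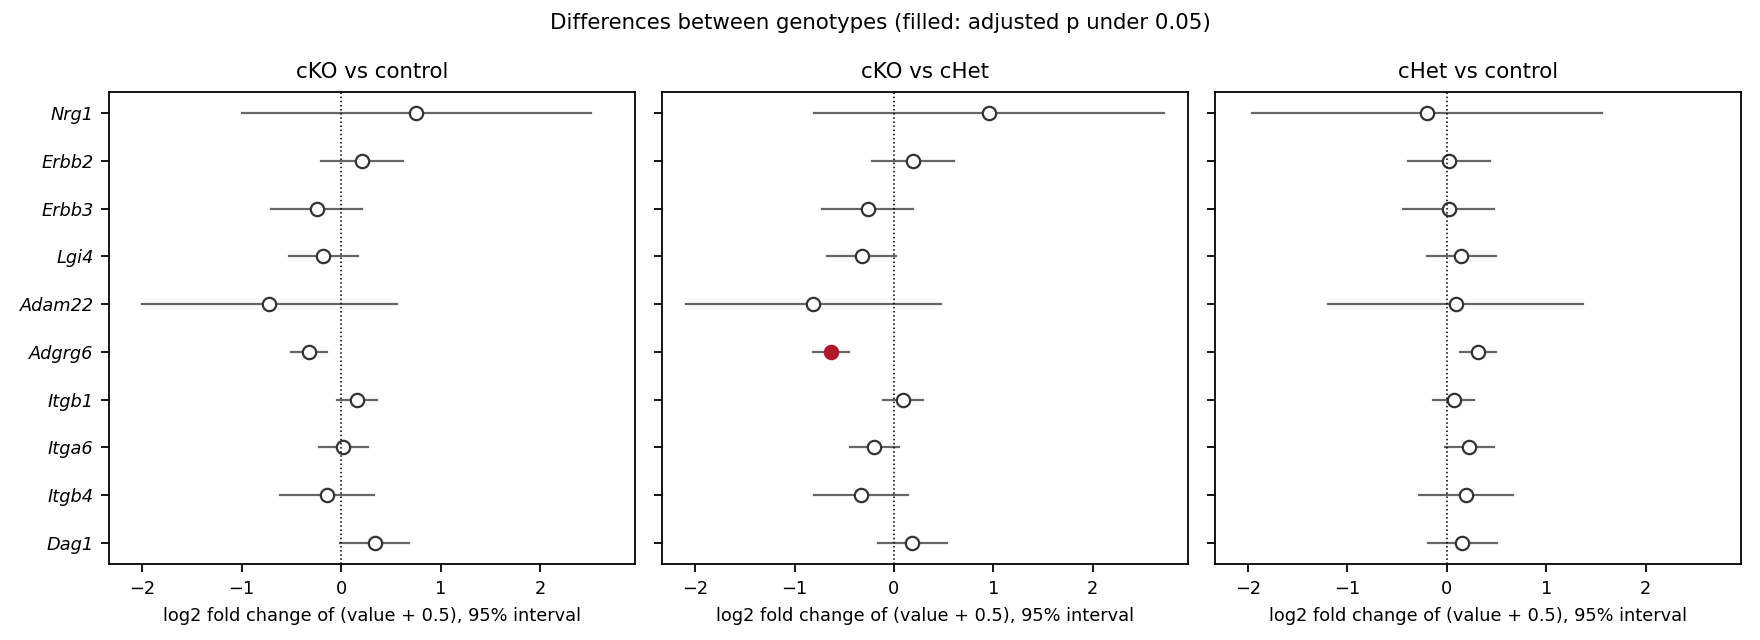
Log2 fold changes of the 10 genes (horizontal axis, of normalized TPM + 0.5) with 95% intervals from limma, for cKO against control, cKO against cHet and cHet against control from left to right. Filled points have an adjusted p under 0.05, which holds for Adgrg6 in cKO against cHet at -0.63 and for no other point.

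Nrg1 encodes the axonal neuregulin. It had 3.85, 3.61 and 9.34 normalized TPM in cKO nerves, 4.37, 1.5 and 1.96 in cHet nerves and 1.35, 11.9 and 1.09 in control nerves. The highest nerve of each genotype was the one with the high neuron score, and the groups overlapped. Its log2 fold change was 0.76 for cKO against control (95% interval -1.0 to 2.51, adjusted p = 0.77) and 0.96 for cKO against cHet (95% interval -0.80 to 2.72, adjusted p = 0.634). The summed level of the 16 neuron markers, all with a mean of at least 1 and none at 0, was 397 to 2107 in cKO, 213 to 1945 in cHet and 209 to 4815 in control nerves. Without the 3 neuron-rich libraries Nrg1 was 3.85 and 3.61 in cKO, 1.5 and 1.96 in cHet and 1.35 and 1.09 in control nerves, so that the remaining cKO nerves stood above the others. The log2 fold change was then 1.30 for cKO against control (adjusted p = 0.164) and 0.93 for cKO against cHet (adjusted p = 0.291), neither past the threshold. These 2 cKO nerves also had neuron scores above those of the remaining control nerves, at 0.00 and -0.10 against -0.86 and -1.31, while the remaining cHet nerves, of mice ID-2745 and ID-2750, had -1.13 and 0.16, the second above both cKO nerves. With the neuron score as a covariate over all 9 nerves the log2 fold change was 0.59 for cKO against control (adjusted p = 0.219) and 0.80 for cKO against cHet (adjusted p = 0.110), and neither passed. The part of neuronal RNA in the Nrg1 differences was not tested as such.

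Adam22, which encodes the receptor of Lgi4, had 6.47, 6.04 and 18.0 normalized TPM in cKO nerves, 21.6, 14.0 and 13.7 in cHet nerves and 8.85, 35.9 and 10.7 in control nerves. Here too the highest nerve of each genotype was the neuron-rich one. The groups overlapped, and the log2 fold change was -0.72 for cKO against control (95% interval -2.00 to 0.56, adjusted p = 0.676) and -0.81 for cKO against cHet (95% interval -2.09 to 0.47, adjusted p = 0.574). Without the neuron-rich libraries the 2 remaining cKO nerves, at 6.47 and 6.04, lay below the remaining cHet nerves, at 14.0 and 13.7, and below the remaining control nerves, at 8.85 and 10.7. The log2 fold change was then -0.60 for cKO against control (adjusted p = 0.267) and -1.09 for cKO against cHet (adjusted p = 0.117), and neither passed. With the neuron score as a covariate over all 9 nerves it was -0.84 and -0.92 in the same comparisons (adjusted p = 0.131 and 0.101), so that Adam22 kept its sign in these settings. It turned to 0.25 for cKO against control and 0.37 for cKO against cHet without the 3 libraries whose genotype field differs, where the lone cKO nerve was the neuron-rich one.

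**Figure D3:**
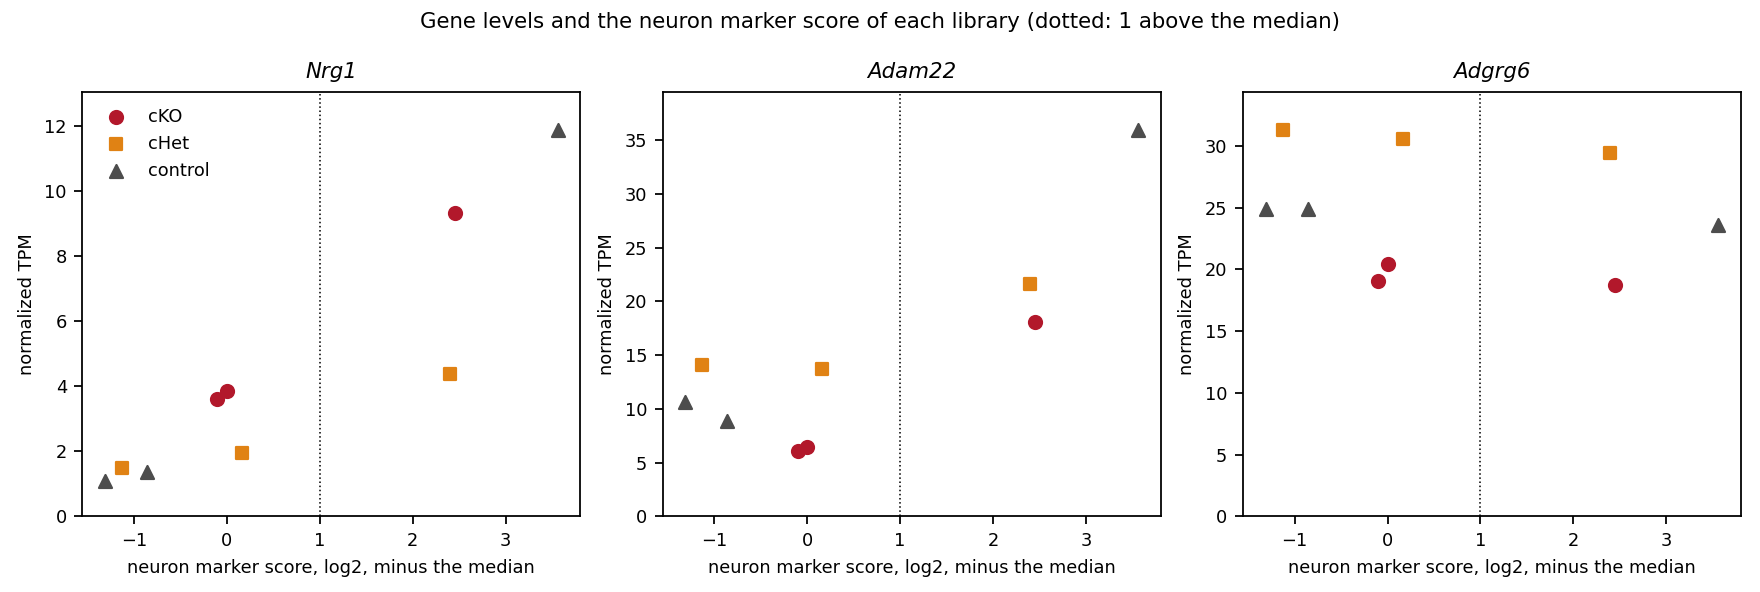
Levels of Nrg1, Adam22 and Adgrg6 in normalized TPM (vertical axes) against the neuron marker score of each library in log2 units minus the median of the 9 libraries (horizontal axis), 1 point per mouse. Nrg1 and Adam22 are highest in the 3 libraries right of the dotted line, reaching 11.9 and 35.9, while Adgrg6 stays at 18.8, 29.5 and 23.6 there, apart by genotype.

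Lgi4, the secreted Schwann cell partner of Adam22, had 238, 248 and 266 normalized TPM in cKO nerves, 258, 358 and 335 in cHet nerves and 263, 256 and 338 in control nerves. The cKO nerves lay in the lower range of both other groups, without separating from them. Its log2 fold change was -0.18 for cKO against control (95% interval -0.53 to 0.17, adjusted p = 0.711) and -0.33 for cKO against cHet (95% interval -0.67 to 0.02, adjusted p = 0.372).

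Erbb3, the receptor chain that binds neuregulin, had 70.2, 77.4 and 74.4 normalized TPM in cKO nerves, 69.2, 104 and 97.7 in cHet nerves and 72.7, 79.6 and 117 in control nerves. The cKO nerves were close to each other and the other groups reached higher, with overlap. The log2 fold change was -0.25 for cKO against control (95% interval -0.71 to 0.21, adjusted p = 0.696) and -0.27 for cKO against cHet (95% interval -0.72 to 0.19, adjusted p = 0.610). Erbb2, the chain that lends ErbB3 its kinase, had 33.9, 40.6 and 35.5 in cKO nerves, 27.8, 35.4 and 33.3 in cHet nerves and 28.5, 26.0 and 42.0 in control nerves. Its groups overlapped as well, and the log2 fold change was 0.21 for cKO against control (95% interval -0.20 to 0.63, adjusted p = 0.71) and 0.19 for cKO against cHet (95% interval -0.22 to 0.60, adjusted p = 0.698). Between cHet and control nerves the log2 fold change was 0.02 for Erbb3 (95% interval -0.44 to 0.48) and 0.02 for Erbb2 (95% interval -0.39 to 0.44).

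The levels of paired genes were also set against each other within a library. The ratio of Erbb3 to Erbb2 was 2.07, 1.91 and 2.09 in cKO nerves, 2.49, 2.94 and 2.93 in cHet nerves and 2.55, 3.06 and 2.78 in control nerves. Each cKO nerve lay below each nerve of the other groups. A ratio within a library does not depend on the scaling between libraries and shows unequal levels only, not which of the chains differed. The ratio of Itga6 to Itgb1 was 1.31, 1.12 and 1.23 in cKO, 1.44, 1.57 and 1.46 in cHet and 1.34, 1.28 and 1.39 in control nerves, below each cHet nerve in every cKO nerve and overlapping with control. The other 3 ratios, Itga6 to Itgb4, Dag1 to Itgb1 and Lgi4 to Adam22, overlapped between cKO and control nerves. Among these 5 ratios, chosen after the values of the genes were known, an exact permutation test of 3 nerves against 3 cannot give a p below 0.1, and none was tested.

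**Figure D4:**
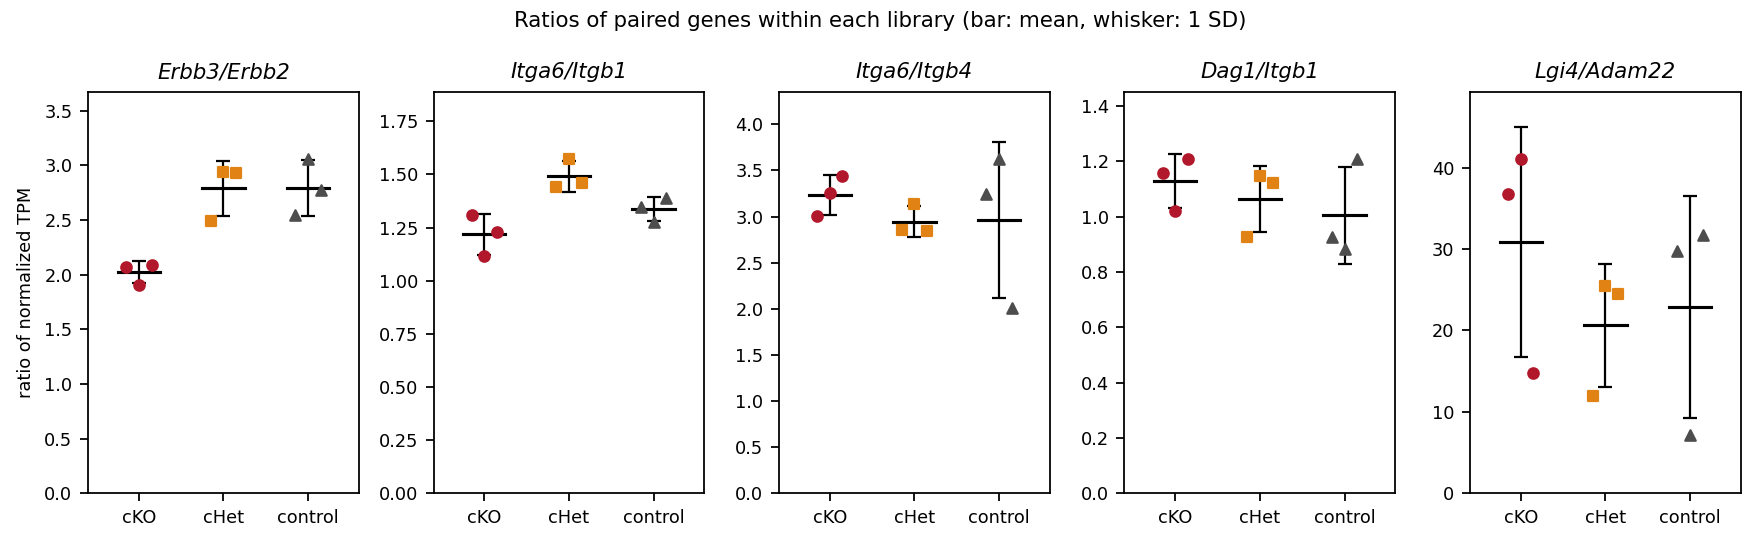
Ratios of the levels of paired genes within each library (vertical axes, ratio of normalized TPM), with cKO, cHet and control from left to right, 1 point per mouse, a bar at the mean and a whisker of 1 SD. Erbb3/Erbb2 lies at 1.91 to 2.09 in the cKO nerves and at 2.49 or above in all others.

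Itgb1 encodes the β1 integrin chain, which pairs with several α chains to bind laminin and collagen. It had 303, 314 and 292 normalized TPM in cKO nerves, 260.4, 299 and 294 in cHet nerves and 286, 271 and 256 in control nerves. Each cKO nerve lay above each control nerve, by a small margin, and the cKO and cHet nerves overlapped. Its log2 fold change for cKO against control was 0.16 (95% interval -0.04 to 0.36, adjusted p = 0.514), which did not pass, and for cKO against cHet 0.09 (adjusted p = 0.699), which turned to -0.05 when libraries were rescaled to the same sum. Itga6, its laminin-binding partner and that of Itgb4, had 397, 351 and 359 in cKO nerves, 375, 470.2 and 429 in cHet nerves and 385, 346 and 356 in control nerves. It overlapped in all comparisons, with a log2 fold change of 0.02 for cKO against control (95% interval -0.22 to 0.27, adjusted p = 0.963) and -0.20 for cKO against cHet (95% interval -0.45 to 0.05, adjusted p = 0.446).

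Itgb4 encodes the β4 chain, which appears on Schwann cells as they myelinate. It had 132, 108 and 104 normalized TPM in cKO nerves, 131, 150.0 and 151 in cHet nerves and 119, 95.5 and 177 in control nerves. The cHet nerves were close to each other and the control nerves spread over the whole range, so that cKO and control nerves overlapped. The log2 fold change was -0.15 for cKO against control (95% interval -0.62 to 0.33, adjusted p = 0.852) and -0.33 for cKO against cHet (95% interval -0.81 to 0.14, adjusted p = 0.519).

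Dag1, which encodes both chains of dystroglycan, had 351, 320.3 and 353 normalized TPM in cKO nerves, 241, 342 and 329 in cHet nerves and 265, 239 and 309 in control nerves. Each cKO nerve lay above each control nerve, while 2 of the 3 cHet nerves reached the cKO range. Expression in the cKO reached 126% of that in the control, or 0.34 as a log2 fold change (95% interval -0.01 to 0.69, adjusted p = 0.401 from limma), which did not pass, and against cHet nerves it was 0.18 (95% interval -0.17 to 0.53, adjusted p = 0.652). Between cKO and control nerves 3 of the 10 genes did not overlap, Adgrg6 being lower and Itgb1 and Dag1 higher, where 17.4% of all tested genes did not overlap. Between cKO and cHet nerves 1 of 10 did not overlap, against 24.3% of all tested genes, and between cHet and control nerves 1 of 10, against 7.1%. In both of these comparisons the gene was Adgrg6.

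Between cHet and control nerves 9 of the 10 fold changes were above 0 and 1, Nrg1 at -0.20, was below, beside 6518 of 15014 tested genes above 0. Leaving out 1 library changed the sign of Nrg1, Erbb2, Erbb3, Adam22 and Itgb4 in at least 1 case in this comparison. Apart from Adgrg6 they lay between -0.20 and 0.22 on the log2 scale, and Itga6, at 0.22 (95% interval -0.02 to 0.47), had the largest. Under a rescaling of the libraries to the same sum the median of all tested genes moved to 0.05 in this comparison, to -0.09 for cKO against control and to -0.12 for cKO against cHet, and the fold changes of the 10 genes moved with it.

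The genes that work beside the 10 were taken from 8 lists with 132 genes in all, of which 126 were tested and Nrg3, Areg, Ereg, Lama1, Itga8 and Sgcz lay below the minimum mean. In cKO against control nerves 4 of the 126 were higher and 1 lower past the threshold, beside 1.57% of all tested genes. In cKO against cHet nerves 4 were higher and 1 lower, beside 1.71%. In cHet against control nerves 0 of the 126 passed by limma, and 1 had an unadjusted p under 0.05, beside 2.72% of all tested genes. Their median log2 fold change was -0.0018 for cKO against control, -0.02 for cKO against cHet and 0.02 for cHet against control. Of the 126, 17 were higher and 13 lower in each cKO than in each control nerve, where 17.4% of all tested genes did not overlap. Between cKO and cHet nerves 20 lay higher and 22 lower without overlap, beside 24.3% of all tested genes. The genes that passed were 3 of the neuregulin and ErbB list, 2 other integrin subunits and 1 of the dystroglycan complex.

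Of the 29 tested genes of the neuregulin and ErbB list, 2 passed as higher in cKO against control nerves and 3 in cKO against cHet nerves. None passed as lower in either, where 1.57% and 1.71% of all tested genes passed in either direction. Fold changes below 0 were found for 15 of the 29 against control and for 14 against cHet. Erbin, which encodes a scaffold that binds ErbB2, had 62.7, 61.5 and 56.5 normalized TPM in cKO nerves, 38.8, 46.2 and 40.6 in cHet nerves and 42.2, 38.2 and 38.3 in control nerves, a log2 fold change of 0.60 against control (standard error 0.094, adjusted p = 0.0220) and 0.52 against cHet (adjusted p = 0.0342). Hbegf, a heparin-binding ligand of the EGF receptor and ErbB4, had 40.2, 42.5 and 48.8 in cKO nerves, 21.7, 28.4 and 26.9 in cHet nerves and 26.0, 22.5 and 27.4 in control nerves, with log2 fold changes of 0.78 against control (standard error 0.13, adjusted p = 0.0296) and 0.77 against cHet (adjusted p = 0.0296). Both genes were higher in each cKO nerve than in any other nerve. Btc, which encodes betacellulin, another ligand of the EGF receptor and ErbB4, was low, at 2.02, 2.72 and 2.20 in cKO nerves, 0.587, 0.771 and 0.701 in cHet nerves and 0.962, 1.06 and 0.744 in control nerves. Against cHet nerves it passed at 1.24 on the log2 scale (adjusted p = 0.0495), and not against control nerves, at 0.98 (adjusted p = 0.112), and that call was lost without any 1 of the 9 libraries (adjusted p = 0.0529 to 0.165).

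Among the 12 tested integrin subunit genes outside the 10, 2 passed as higher in cKO against control nerves and 1 in cKO against cHet nerves. None passed as lower, where 1.57% and 1.71% of all tested genes passed in either direction. Fold changes below 0 were found for 5 of the 12 against control and for 6 against cHet. Itga7, whose α7 chain pairs with β1 and binds laminin, had 123, 125 and 117 normalized TPM in cKO nerves, 89.0, 72.3 and 75.7 in cHet nerves and 75.2, 76.0 and 80.8 in control nerves. Its log2 fold change was 0.65 against control (standard error 0.093, adjusted p = 0.0158) and 0.62 against cHet (adjusted p = 0.0182). Itgb8, whose β8 chain pairs with αv, had 89.5, 82.1 and 93.0 in cKO nerves, 47.5, 63.4 and 54.0 in cHet nerves and 53.4, 50.2 and 36.2 in control nerves. It passed against control at 0.93 (standard error 0.16, adjusted p = 0.0320) and not against cHet at 0.69 (adjusted p = 0.0834). Itga7 is also a gene of skeletal muscle, and the nerves with high muscle scores, cKO mice ID-2747 and ID-2748 and control mouse ID-2743, had 125, 117 and 75.2. The fold changes of Itga7 kept their sign in all 24 alternative settings, among them the one without these nerves. On the log2 scale they were 0.58 to 0.68 against control and 0.48 to 0.74 against cHet. The part of muscle in the difference was not tested as such. The summed level of the 13 muscle markers, all with a mean of at least 1, was 275 to 10653 in cKO, 40.8 to 364 in cHet and 62.3 to 20268 in control nerves.

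In the dystroglycan complex 1 of 15 tested genes passed as lower in cKO nerves and none passed as higher, in either comparison. Of all tested genes 1.57% passed against control and 1.71% against cHet. Fold changes above 0 were found for 7 of the 15 in each comparison. Sgcd, which encodes δ-sarcoglycan, a membrane protein held with dystroglycan, had 18.3, 15.7 and 24.3 normalized TPM in cKO nerves, 50.6, 65.8 and 54.8 in cHet nerves and 50.9, 50.5 and 45.4 in control nerves. Each cKO nerve lay far below every other nerve. Its log2 fold change was -1.33 against control (standard error 0.16, adjusted p = 0.00893) and -1.55 against cHet (standard error 0.16, adjusted p = 0.00467), the largest size among the pathway genes that passed.

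**Figure D5:**
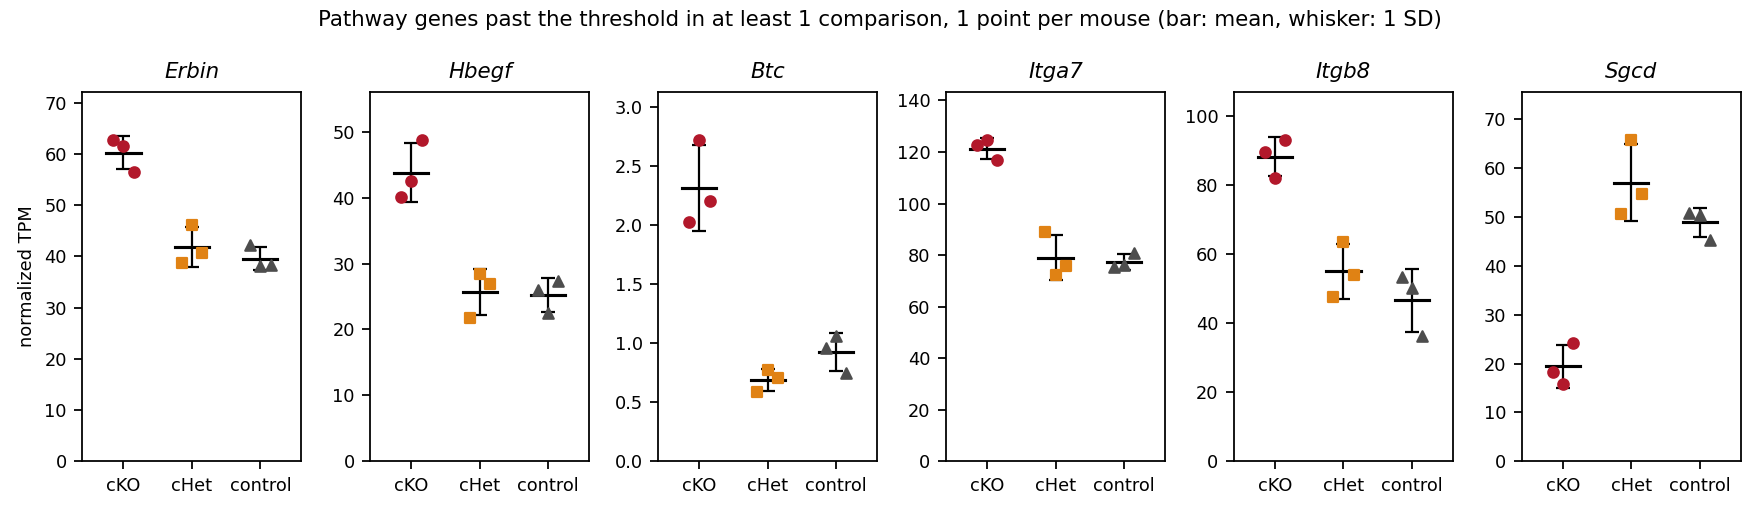
Levels in normalized TPM (vertical axes) of the 6 pathway genes past the threshold in at least 1 comparison, with cKO, cHet and control from left to right, 1 point per mouse, a bar at the mean and a whisker of 1 SD. Sgcd lies at 15.7 to 24.3 in cKO nerves and at 45.4 or above in all others, and the other 5 genes are higher in each cKO nerve than in any other.

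Apart from those of Sgcd, these calls sat near the threshold. Leaving out any 1 of the 3 cKO libraries raised the adjusted p of Erbin (0.0597 to 0.132), Hbegf (0.0803 to 0.113), Itga7 (0.05565 to 0.0899) and Itgb8 (0.0861 to 0.131) above 0.05 in the comparisons in which they had passed, with fold changes of the same sign. Against control nerves the call was also lost without cHet mouse ID-2750 for Erbin (0.0555), Hbegf (0.0656) and Itgb8 (0.0696), without control mouse ID-2743 for Hbegf (0.0762) and Itga7 (0.0532), without control mouse ID-2746 for Erbin (0.0635), Hbegf (0.0761) and Itgb8 (0.0566), and without control mouse ID-2754 for Erbin (0.0717), Hbegf (0.0613) and Itgb8 (0.0548). Against cHet nerves it was also lost without cHet mouse ID-2742 for Erbin (0.107) and Hbegf (0.0781), without cHet mouse ID-2745 for Erbin (0.0691), Hbegf (0.0813) and Itga7 (0.0939), without cHet mouse ID-2750 for Erbin (0.14), Hbegf (0.0958) and Itga7 (0.0919), without control mouse ID-2743 for Hbegf (0.0508) and without control mouse ID-2746 for Erbin (0.0529). Sgcd lost its call against control without cKO mouse ID-2744 (0.0529) and kept it without any other single library, with fold changes of -1.50 to -1.20 against control and -1.71 to -1.41 against cHet. Across the 24 alternative settings, calls against control were lost in 15 for Hbegf, 12 for Itgb8 and 11 for Erbin. For Itga7 and Sgcd they were lost in 9 and 5. Calls against cHet were lost in 16 for Hbegf, 15 for Erbin, 9 for Itga7 and 2 for Sgcd. For Btc this call was lost in 19 of 23.

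The other lists held no gene past the threshold in any comparison, and the genes given for them had the smallest unadjusted p. In the Lgi and Adam22 family, with 7 tested, Lgi1, a relative of Lgi4, had 12.1, 11.3 and 16.9 normalized TPM in cKO nerves, 25.1, 23.6 and 21.7 in cHet nerves and 23.4, 22.3 and 13.4 in control nerves, at -0.80 for cKO against cHet (adjusted p = 0.145), and the scaffold gene Dlg1 was at -0.27 (adjusted p = 0.285). Among 18 genes of Adgrg6 ligands and cyclic AMP signalling, Prnp, whose prion protein is a ligand of Adgrg6, had 601, 711 and 613 in cKO nerves, 445, 531 and 474 in cHet nerves and 441, 499 and 466 in control nerves, at 0.45 for cKO against control (adjusted p = 0.103). Egr2, the transcription factor of myelination that acts after Adgrg6 and is also in the Schwann cell marker list, had 51.8, 45.7 and 58.2 in cKO nerves, 27.1, 40.5 and 40.4 in cHet nerves and 27.8, 31.3 and 36.3 in control nerves, at 0.70 for cKO against control (adjusted p = 0.115). Prnp and Egr2 were thus higher in each cKO nerve than in any other nerve, and neither passed the test in any comparison.

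Of the 14 tested laminin and nidogen genes, Agrn, whose agrin binds laminin and dystroglycan, had 69.2, 75.3 and 62.4 normalized TPM in cKO nerves, 87.7, 106 and 102 in cHet nerves and 87.7, 89.2 and 101 in control nerves, below all others in each cKO nerve. Its log2 fold change was -0.51 for cKO against cHet (adjusted p = 0.0624) and -0.42 for cKO against control (adjusted p = 0.120). Lama2, the laminin chain of the Schwann cell basal lamina, was at -0.31 for cKO against cHet (adjusted p = 0.312) with overlap. Of the 16 integrin effectors, Tln2 and Tln1, which encode talins that link integrins to actin, were at -0.69 and -0.29 for cKO against cHet (adjusted p = 0.216 and 0.242). Of the 15 tested genes of the dystroglycan glycosylation list, 0 passed in any of the 3 comparisons by limma. An unadjusted p under 0.05 was reached by 4 for cKO against control, 4 for cKO against cHet and 0 for cHet against control. Among all tested genes the shares were 12.9%, 14.6% and 2.72% in the same order. Dpm1 was at 0.38 for cKO against cHet (adjusted p = 0.183).

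Of 9084 genes with a symbol and a mean of at least 10, those whose log2 values followed a gene most closely over the 9 libraries are given for 4 of the 10, as a description. Adgrg6 was followed by Bmp7 (Pearson's r = 0.96, Spearman's rho = 0.98), Zc3h4 (0.95, 0.93) and Pam (0.95, 0.87). Erbb3 was followed by Magi2 (0.99, 0.90), Mlec (0.98, 0.97) and Tmem189 (0.98, 0.87). Itga6 was followed by Celf2 (0.95, 0.95), Cttnbp2nl (0.95, 0.92) and Lama2 (0.94, 0.92). Dag1 was followed by Plxnb3 (0.96, 0.85), Gldn (0.96, 0.92) and Fmn2 (0.95, 0.92). The points share genotype, scaling and the make-up of each nerve.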

How the data were processed

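RNA of sciatic nerves from 9 mice was sequenced by the authors with Illumina TruSeq libraries. They deposited 1 table, a signal in normalized TPM per gene and library. Among the tools in the submitters' processing notes are kallisto 0.44.0 and sleuth 0.30.0, with GRCm38 as the build. The parameters, the scaling between libraries and whether strand was kept are not given in the sources read here. The deposited signal summed to 934932 to 1158094 per library and thus is scaled beyond plain TPM. Such values hold no read depth, which leaves their counting error unknown. The number of table columns left unused was 0.

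Symbols were matched by Ensembl identifier for 35471 of 36121 genes, and positions and transcripts were taken from GENCODE M21, of the same build. Genes with a mean of at least 1 were tested as log2(value + 0.5), which understates changes of low genes. All 9 libraries were fitted in 1 model with limma 3.58.1 in R 4.3.3 with a mean-variance trend, with two-sided tests and Benjamini-Hochberg adjustment over 15014 genes at 0.05. The fit was tested on simulated data. Intervals are at 95%. A marker score is the mean log2 value over the list minus its median over the libraries. Groups followed the sample titles, where 3 genotype fields differ.

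The 10 genes, the 8 pathway lists and the marker lists were chosen with earlier results of these data known. The text names Tardbp, Cnp, the 10 genes, pathway genes past the threshold (at most 4 a list) or otherwise the 2 genes with the smallest unadjusted p, and for 4 of the 10 genes the 3 most alike by Pearson's r. Genes that overlap the 10 are also named. One gene that the rule picks is not reported here. The alternatives were other pseudocounts, filters and scalings, fits of 2 groups, sex as a covariate, and leaving out single libraries, those whose genotype field differs and those high in neuron, muscle or fat markers. Fits with the neuron or Schwann cell score as a covariate were added after the data were seen.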

Additional observations from a re-analysis of the deposited data

How the results depend on the processing

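The table gives no counts, so that counting error could not be set against the spread of 3 nerves per group. Of 717 fold changes of the 10 genes under 24 alternative settings, 672 kept their sign and side of the threshold, 6 lost the call, all of Adgrg6 in cKO against cHet, and 39 changed sign without having passed. Of the 30 fold changes 18 never changed sign. With a mean of at least 5 as the filter, Nrg1 could not be given. No paired analysis was possible because the mice carry no number shared between groups. The causes of the shifts were not tested.

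Adgrg6 was the only one of the 10 genes called in any setting, and the number called in cKO against cHet was 0 to 1 without any 1 library and 0 without the libraries whose genotype field differs and without those rich in neuron or muscle markers. Over all genes, leaving out 1 library gave 50 to 179 calls for cKO against control and 55 to 274 for cKO against cHet, and in the order cKO against control, then cKO against cHet, the numbers were 0 and 0 without the libraries whose genotype field differs, 16 and 14 without the neuron-rich and 0 and 0 without the muscle-rich libraries, settings with fewer samples. Without the fat-rich libraries it was 19 for cKO against control, in a fit of the 2 groups alone 50, and without a filter 168 for cKO against cHet and 2 for cHet against control.

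Sign changes among fold changes that had not passed were these. For cKO against control, Itga6 turned to -0.043 under rescaling to the same sum, to -0.018 under quantile normalization and to -0.012 without the libraries whose genotype field differs. Without those Adam22 was 0.25, without the muscle-rich libraries Nrg1 was -0.028 and Itgb4 0.020, and without the fat-rich libraries Nrg1 was -1.14 and Itgb4 0.25. The setting without the fat-rich libraries, here and below, left 1 control nerve, that of mouse ID-2746. Its neuron score was 3.56 above the median. For cKO against cHet, Itgb1 turned to -0.050 under rescaling, -0.065 under quantile normalization and -0.022 without the libraries whose genotype field differs, Adam22 was 0.37 without these, and Dag1 was -0.0018 without the neuron-rich libraries. For cHet against control, Adam22 was -0.12 without the libraries whose genotype field differs, -0.28 without the muscle-rich and -1.13 without the fat-rich libraries, Nrg1 was 0.37 and Erbb2 -0.011 without the neuron-rich libraries, Erbb2 was -0.047 and Erbb3 -0.12 without the muscle-rich libraries, and with the Schwann cell score as a covariate they were -0.033 and -0.047. Leaving out 1 library gave ranges across 0 for cKO against control of -0.030 to 0.068 for Itga6 and -0.35 to 0.10 for Itgb4, and for cHet against control of -0.73 to 0.75 for Nrg1, -0.11 to 0.23 for Erbb2, -0.12 to 0.22 for Erbb3, -0.28 to 0.70 for Adam22 and -0.011 to 0.43 for Itgb4.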
